A study of Homo sapiens with 8 samples.

Results

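The BCL2 family genes that set the threshold for mitochondrial cell death were followed in ribosome footprints of IMR32 cells, a human neuroblastoma line with amplified MYCN. The 10 genes were taken from the deposited table of 60651 genes by matching its Ensembl identifiers, version ignored, to the symbols BCL2, BCL2L1, MCL1, BAX, BAK1, BBC3, PMAIP1, BCL2L11, BID and BAD, and each matched 1 identifier. In ribosome profiling (Ribo-seq), the mRNA stretches that ribosomes shield from nuclease are sequenced, and fragments of 28 to 30 nt were kept here. Wild-type IMR32 cells were exposed for 6 h to CR31B (4 libraries) or to 0.1% DMSO, the solvent control (4 libraries), and both groups received cycloheximide, which halts elongating ribosomes, before harvest. CR31B is a synthetic analogue of silvestrol, from the rocaglate class of compounds that clamp the RNA helicase eIF4A onto purine-rich RNA; its dose is not given in the sources used here. The libraries are described as biological replicates of a single cell line.

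Proteins of the BCL2 family act on the outer mitochondrial membrane. Anti-apoptotic members (BCL2, BCL-xL from BCL2L1, and MCL1) bind and restrain the effectors BAX and BAK, which otherwise oligomerise and release cytochrome c. BH3-only proteins respond to stress: some occupy the groove of the anti-apoptotic members, and some also activate the effectors directly. Neuroblastoma lines commonly depend on BCL2 or MCL1 for survival, and MCL1 is a short-lived protein that has to be made continuously.

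Values are given as TPM, a footprint level divided by transcript length and expressed as a part of a constant library total, and errors after ± are SDs over the 4 libraries of a group (n = 4). Libraries listed 17857 to 19758 genes above 0 in CR31B and 19043 to 22270 in DMSO. The estimated value of 1 read, in TPM times nt, was 15.85 to 22.35 in CR31B and 10.7 to 18.5 in DMSO. A larger value means fewer reads, so the CR31B libraries tended to be shallower, with overlapping ranges. The protein-coding part of TPM was between 51.8% and 61.3%, with CR31B replicate 1 the highest. Markers of adrenergic neuroblastoma were present, with 9 of 10 at a mean of at least 1 TPM and a summed level of 699.7 to 797.6 TPM in CR31B and 649.3 to 826.0 TPM in DMSO. The summed levels of leukocyte, epithelial and hepatocyte markers were at most 0.34 TPM in any library. Of the 4 fibroblast markers only COL1A1 had a mean of at least 1 TPM, and the summed fibroblast level was 5.54 to 12.5 TPM in CR31B and 8.51 to 16.4 TPM in DMSO.

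Of the 10 genes, BCL2 and BID fell under CR31B, and none of the others passed the test in either direction. Genes were called at a limma adjusted p under 0.05 over the 11778 genes whose mean over the 8 libraries reached 1 TPM, of which 879 were called (7.46%), 406 higher (3.45%) and 473 lower (4.02%). BBC3 was under that minimum, which left 9 members tested, 2 of them called, both lower. The members, and the gene lists below, were chosen with earlier results of these data known. Their counts beside the share over all genes are therefore a description. The median log2 difference of the 9 was 0.051, against 0.029 for all genes tested. With the replicate number as a block, 3 members were called, BCL2 and BID lower and PMAIP1 higher, against 12.3% of all genes tested (6.56% lower and 5.77% higher). With no minimum level 1 member, BCL2, was called, against 1.55% of 28564 genes. A log2 difference, or log2 fold change, is CR31B minus DMSO in log2(TPM + 1), a scale that understates the change of low genes. RNA levels were not analysed here, so less mRNA and fewer ribosomes per mRNA cannot be told apart, and in a bulk lysate neither can fewer expressing cells and less RNA per cell.

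**Figure D1:**
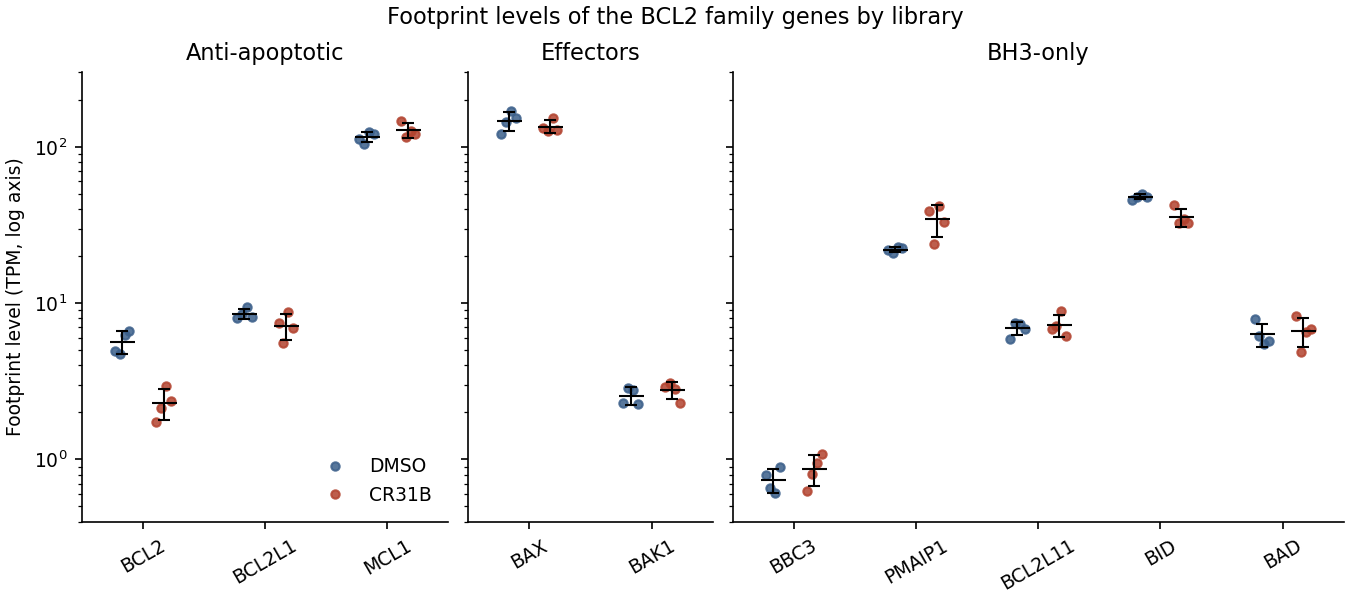
Footprint level in TPM (log axis) of the 10 BCL2 family genes in each library, by role. Points are the 4 DMSO and 4 CR31B libraries and bars the mean ± SD: the groups are apart for BCL2 (1.74 to 2.96 in CR31B against 4.73 to 6.64 in DMSO), PMAIP1 and BID, and overlap for the other 7 genes.

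Among the anti-apoptotic genes, BCL2 fell while BCL2L1 and MCL1 did not pass the test. BCL2 (ENSG00000171791.14, chr18:63123346-63320128, minus strand, GRCh38) encodes the founding survival protein of the family and the target of venetoclax. Its level was 1.74, 2.13, 2.96 and 2.38 TPM in CR31B replicates 1 to 4 and 4.96, 4.73, 6.29 and 6.64 TPM in DMSO replicates 1 to 4. All CR31B libraries lay below all DMSO libraries, and the highest CR31B level was well under the lowest DMSO level. The means were 2.30 ± 0.511 TPM in CR31B and 5.66 ± 0.951 TPM in DMSO, so that the CR31B mean was 0.407 of the DMSO mean. The log2 difference was -1.01 (95% confidence interval -1.37 to -0.65, SE 0.16, limma adjusted p = 0.00568). Only 1.08% of the genes tested had a log2 difference as low or lower. The value rests on an estimated 816 to 4013 reads per library if the annotated transcript of 7461 nt is the length behind the TPM, and no other annotated gene overlaps its exons. BCL2 was called in all 16 alternative analyses that tested it, each single-library omission included.

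The 5′ leader of BCL2 is shown because rocaglates act on purine-rich leaders and BCL2 had the largest fall of the family. In the transcript taken from GENCODE release 29, the 5′ untranslated region of BCL2 has 1462 nt, and only 0.624% of the 10090 tested genes with an annotated leader have one as long. Its longest uninterrupted run of purines (A or G) has 18 nt, and 4.05% of those genes hold a run of at least that length. The median leader of those genes has 195 nt. Among genes with a leader of at least 500 nt such a run is less rare, with 154 that hold it and 985 that do not. The run of BCL2 is set below beside those of the other anti-apoptotic genes and of BID and PMAIP1, the genes whose groups did not overlap. Each is written 5′ to 3′ on the transcript strand with the purines in capitals and up to 5 flanking bases in lower case, at chr18:63319796-63319823 (minus strand) for BCL2, chr20:31722838-31722858 (minus) for BCL2L1, chr1:150579574-150579589 (minus) for MCL1, chr22:17774005-17774016 (minus) for BID and chr18:59899948-59899959 (plus) for PMAIP1, all in GRCh38.
BCL2: tttttAGGAAAAGAGGGAAAAAAtaaaa
BCL2L1: gcgatGGAGGAGGAAGcaagc
MCL1: ccagtAAGGAGtcggg
BID: GAGAAAAcccgc
PMAIP1: AGGGAAGttctc

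BCL2 carried the longest of these runs, BCL2L1 had 11 nt, and MCL1, BID and PMAIP1 had 6, 7 and 7 nt, lengths that 78.3%, 66.1% and 66.1% of the genes reach or exceed. The runs of BID and PMAIP1 begin at the annotated first base of the transcript. Of the remaining members, BCL2L11 had a run of 12 nt, BAD 11, BBC3 8, BAX 6 and BAK1 5. Across all genes with a leader, 12.5% of the 409 with a run of at least 18 nt were called lower and 5.38% higher, against 3.87% and 3.40% of the 9681 with shorter runs. Among genes with a leader of at least 500 nt, 15.6% of 154 with such a run were called lower and 7.14% higher, against 7.72% and 6.80% of 985 without. Of all 10090, 4.22% were called lower and 3.48% higher. The limit of 18 nt is the run length of BCL2, which is itself among the 409 and the 154. The shares by run length are therefore a description and no test of BCL2. A run of 4 consecutive CGG triplets (CGGCGGCGGCGG, transcript strand, presence only) was in the leader of 4.01% of the genes and, of the 10 members, only in BBC3. These are descriptions of annotated sequence. Whether the run has a part in the BCL2 value was not tested, and the start sites used in IMR32 were not examined.

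**Figure D2:**
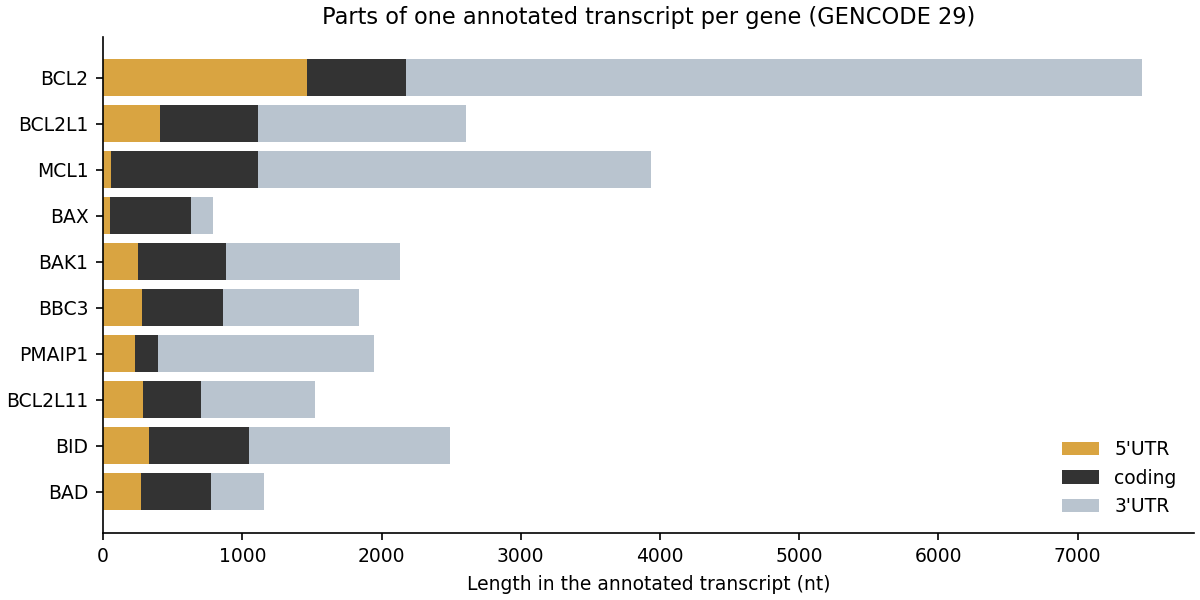
Length in nt (horizontal axis) of the 5′ untranslated region, coding sequence and 3′ untranslated region in the annotated transcript taken for each of the 10 genes. BCL2 has the longest leader, 1462 nt, and a coding sequence that is 9.61% of its 7461 nt.

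BCL2L1 (ENSG00000171552.14, chr20:31664452-31723989, minus strand), which encodes BCL-xL, was at 7.48, 5.54, 8.77 and 6.93 TPM in CR31B and at 7.98, 8.50, 9.40 and 8.17 TPM in DMSO. It was lower in CR31B in 4 of 4 replicate pairs, but CR31B replicate 3 lay above 3 DMSO libraries, so the groups overlapped. For BCL2L1 the log2 difference was -0.23 (95% confidence interval -0.54 to 0.084, SE 0.14, limma adjusted p = 0.367). The interval of BCL2L1 leaves room for no change and for a smaller fall than that of BCL2, whose interval ends at -0.65; the difference between both genes was not tested. The non-coding gene ABALON overlaps BCL2L1 on the opposite strand and was at 1.88 TPM at most.

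MCL1 (ENSG00000143384.14, chr1:150574551-150579738, minus strand) was the leading anti-apoptotic gene in every library. It stood at 147.0, 114.8, 126.7 and 121.0 TPM in CR31B and at 112.5, 104.8, 123.9 and 120.9 TPM in DMSO. CR31B was above DMSO in 4 of 4 pairs, in replicate 4 by a very small margin, and the groups overlapped. The log2 difference was 0.14 (95% confidence interval -0.12 to 0.39, SE 0.11, limma adjusted p = 0.519). Relative to the library total, this interval excludes a fall of the size seen in BCL2. A fall common to all genes would not show in TPM. The estimate was 0.066 without CR31B replicate 1, the library with the highest MCL1 level and the highest share of protein-coding TPM. After rescaling over protein-coding genes it was 0.17 (limma adjusted p = 0.291).

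As shares of the summed TPM of the 3 anti-apoptotic genes, MCL1 made up 93.1% ± 1.15 in CR31B and 89.1% ± 0.430 in DMSO, BCL2L1 5.24% ± 0.801 and 6.58% ± 0.506, and BCL2 1.70% ± 0.430 and 4.34% ± 0.446. The BCL2 share was from 1.11% to 2.14% in the CR31B libraries and from 3.95% to 4.89% in the DMSO libraries, with no overlap. These shares are within a library, so scaling between libraries does not enter them, but the length behind a level does. Per coding length (TPM multiplied by transcript length and divided by coding length, chosen after seeing the data), BCL2 made up 4.59% ± 1.13 of the sum in CR31B and 11.2% ± 1.07 in DMSO, and MCL1 90.3% ± 1.72 and 82.7% ± 0.834. BCL2 thus exceeded BCL2L1 in DMSO on that scale, where BCL2L1 made up 6.09% ± 0.496. Values per coding length, here and below, assume that the annotated transcript taken for each gene gives the length behind its TPM. That length is not given in the sources used here. The ratio of MCL1 to BCL2 levels in TPM was 42.8 to 84.5 in CR31B and 18.2 to 22.7 in DMSO, and per coding length 15.4 to 30.4 and 6.55 to 8.17. No test was made on shares or ratios.

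Neither effector gene passed the test. BAX (ENSG00000087088.20, chr19:48954815-48961798, plus strand) encodes the effector that moves from the cytosol to mitochondria when activated. It was at 131.3, 126.6, 153.7 and 127.5 TPM in CR31B and at 120.6, 144.4, 169.0 and 152.6 TPM in DMSO. CR31B was lower in 3 of 4 pairs and higher in replicate 1, and the groups overlapped widely. For BAX the log2 difference was -0.12 (95% confidence interval -0.40 to 0.17, SE 0.13, limma adjusted p = 0.643).

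BAK1 (ENSG00000030110.13, chr6:33572547-33580293, minus strand), the effector that resides in the mitochondrial membrane, was far lower, at 2.90, 3.10, 2.83 and 2.29 TPM in CR31B and 2.30, 2.88, 2.80 and 2.25 TPM in DMSO. All 4 pairs had the higher level in CR31B, by small margins in replicates 3 and 4, and the groups overlapped. For BAK1 the log2 difference was 0.087 (95% confidence interval -0.22 to 0.39, SE 0.14, limma adjusted p = 0.759). BAX made up 98.0% ± 0.298 of the summed effector TPM in CR31B and 98.3% ± 0.229 in DMSO. The BAK1 pseudogenes BAK1P1 and BAK1P2 were at 0.05 TPM or less, and GGNBP1, which overlaps BAK1 on the opposite strand, at 0.12 TPM or less.

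The BH3-only genes went in different directions: BID fell, PMAIP1 had higher values in every CR31B library but missed the threshold, and BCL2L11 and BAD had estimates near 0. BID (ENSG00000015475.19, chr22:17734138-17774770, minus strand) encodes the protein that caspase-8 cleaves to connect death receptors with mitochondria. It was at 42.4, 32.3, 34.4 and 32.4 TPM in CR31B and at 46.0, 47.7, 50.1 and 47.5 TPM in DMSO. All CR31B libraries lay below all DMSO libraries, with CR31B replicate 1 closest to the DMSO range. The means were 35.4 ± 4.76 and 47.8 ± 1.73 TPM, and the log2 difference was -0.43 (95% confidence interval -0.69 to -0.18, SE 0.11, limma adjusted p = 0.0466). The call was close to the threshold: BID passed in 8 of 17 alternatives, with limma adjusted p from 0.0159 to 0.117. Without CR31B replicate 1 it was 0.0188, and leaving out any of the other 7 libraries gave 0.0906 to 0.117.

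PMAIP1 (ENSG00000141682.12, chr18:59899948-59904306, plus strand) encodes NOXA, a BH3-only protein that binds MCL1 and is induced by stress-response transcription factors. It was at 39.0, 24.0, 41.6 and 33.1 TPM in CR31B and at 21.8, 20.9, 22.8 and 22.6 TPM in DMSO. All CR31B libraries lay above the narrow DMSO range, replicate 2 only slightly. The means were 34.4 ± 7.78 and 22.0 ± 0.866 TPM, which is a log2 difference of 0.59 (95% confidence interval 0.24 to 0.95, SE 0.16). The limma adjusted p was 0.0502, just above the threshold, and 0.0279 with the replicate block. Of 17 alternatives 6 passed; the lowest value was 0.00993, with CR31B replicate 2 left out, and the highest 0.142. The two-sided exact permutation p of PMAIP1 was 0.0286, as for BCL2 and BID, the smallest that 4 against 4 libraries allow. Groups that do not overlap were found in 16.2% of all genes tested (8.14% lower and 8.07% higher in CR31B), and in 3 of the 9 members tested, 2 lower and 1 higher.

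**Figure D3:**
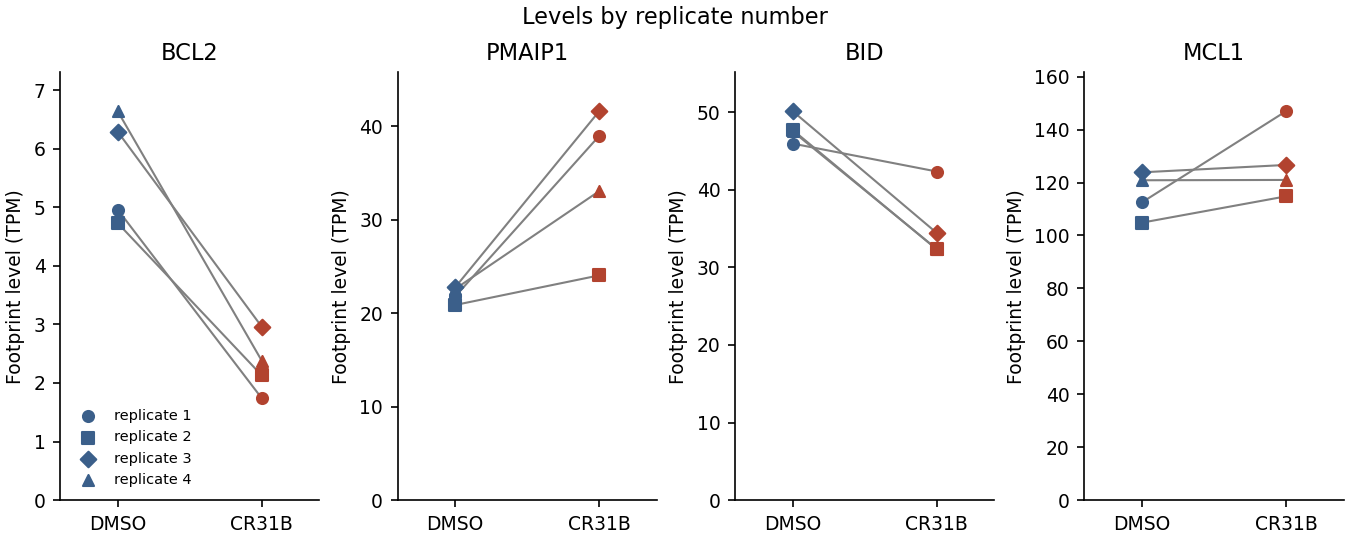
Footprint level in TPM (vertical axis, starting at 0) of BCL2, PMAIP1, BID and MCL1 in DMSO and CR31B, with lines that join libraries of the same replicate number (marker shapes). Every line slopes down for BCL2 and BID and up for PMAIP1, whose CR31B libraries lie between 24.0 and 41.6 TPM, while for MCL1 the groups overlap.

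BCL2L11 (ENSG00000153094.24, chr2:111119378-111168447, plus strand) encodes BIM, which binds every anti-apoptotic member. It was at 6.79, 7.15, 8.86 and 6.13 TPM in CR31B and at 5.93, 7.47, 7.39 and 6.87 TPM in DMSO. The pairs were split evenly in direction and the groups overlapped. The log2 difference was 0.051 (95% confidence interval -0.25 to 0.36, SE 0.14, limma adjusted p = 0.871), and its sign turned in 3 alternatives, quantile normalization among them (-0.000695).

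BAD (ENSG00000002330.14, chr11:64269830-64284704, minus strand), whose product is held in the cytosol by 14-3-3 proteins when phosphorylated, was at 8.21, 4.89, 6.58 and 6.78 TPM in CR31B and at 7.87, 6.17, 5.46 and 5.76 TPM in DMSO. The groups overlapped and the sign turned when CR31B replicate 1 or DMSO replicate 3 was left out. The log2 difference was 0.051 (95% confidence interval -0.31 to 0.42, SE 0.16, limma adjusted p = 0.893). GPR137 overlaps BAD on the opposite strand at a like level (5.54 ± 1.62 TPM in CR31B and 7.92 ± 1.89 in DMSO), and whether reads were counted by strand is not given in the sources used here, and the BAD values are uncertain.

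BBC3 (ENSG00000105327.18, chr19:47220822-47232766, minus strand) encodes PUMA, which binds all anti-apoptotic members. It was at 0.63, 0.81, 0.95 and 1.08 TPM in CR31B and at 0.79, 0.66, 0.61 and 0.89 TPM in DMSO. The groups overlapped, and the exact permutation p was 0.286. With an estimated 60 to 131 reads per library, it was the most thinly covered of the 10 genes. Without the minimum level its log2 difference was 0.10, with a limma adjusted p of 0.729.

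Within the BH3-only genes, the BID share was lower and the PMAIP1 share higher in CR31B, and which of them led depended on the length used. In TPM, BID made up 57.1% ± 0.973 of the summed BH3-only TPM in DMSO and 42.1% ± 4.04 in CR31B, and PMAIP1 26.2% ± 0.769 in DMSO and 40.4% ± 4.28 in CR31B. The PMAIP1 share was 25.2% to 27.0% in the DMSO libraries and 34.7% to 45.0% in the CR31B libraries, with no overlap. Per coding length PMAIP1 led in both groups, at 56.1% ± 1.02 in DMSO and 70.8% ± 3.83 in CR31B, against 35.0% ± 0.778 and 21.4% ± 3.18 for BID. Between partners that bind each other, the ratio of MCL1 to PMAIP1 in TPM was 5.02 to 5.44 in DMSO and 3.04 to 4.78 in CR31B, and per coding length 1.56 to 1.70 and 0.948 to 1.49. That of BCL2L11 to BCL2 in TPM was 1.04 to 1.58 in DMSO and 2.58 to 3.90 in CR31B, and per coding length 0.366 to 0.558 and 0.910 to 1.38. Neither ratio overlapped between the groups in TPM. The coding-length scale multiplies each ratio by a constant, so it cannot change that. PMAIP1 and BCL2 did not overlap between the groups by themselves. Ratios of BAX to BCL2 (51.9 to 75.4 in CR31B, 23.0 to 30.5 in DMSO) and of BCL2L1 to BCL2 did not overlap either. Those of BAX to MCL1 and of BAX to BAK1 overlapped. All are ratios of footprint levels, not of proteins.

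**Figure D4:**
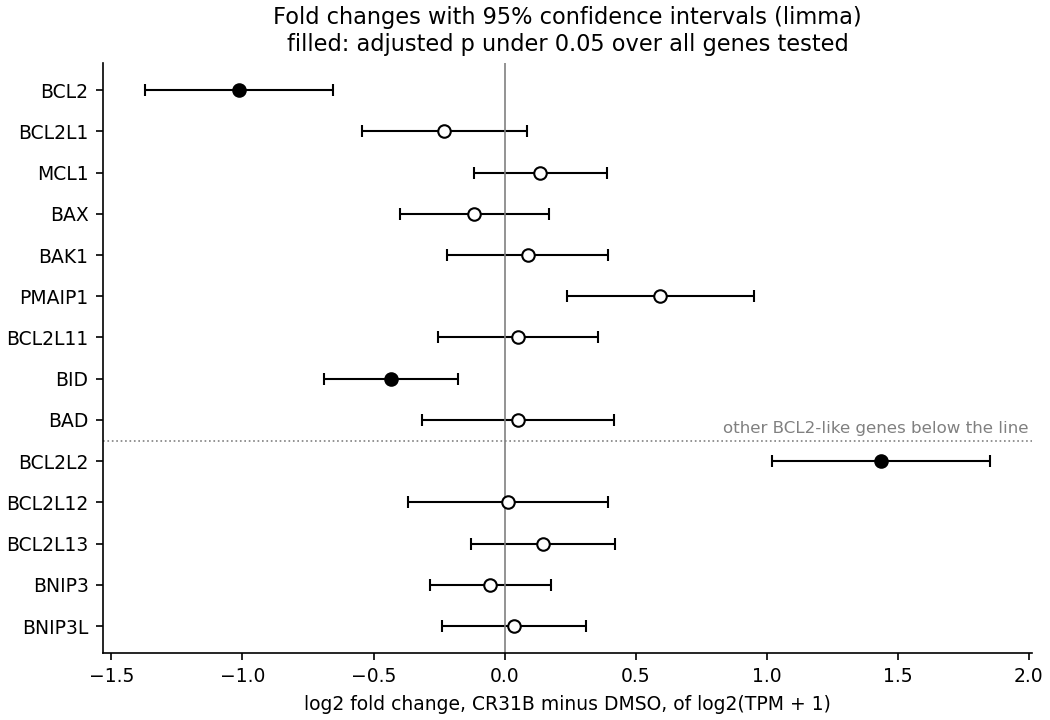
Difference of log2(TPM + 1), CR31B minus DMSO, for the 9 members tested (above the dotted line) and 5 other BCL2-like genes, with 95% confidence intervals from limma; filled points passed the adjusted p of 0.05. Among members the intervals of BCL2, BID and PMAIP1 exclude 0, and PMAIP1, at 0.59 (0.24 to 0.95), has a limma adjusted p of 0.0502.

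In DMSO, the mean levels per transcript length ran from 146.6 TPM for BAX and 115.5 for MCL1 through 47.8 for BID, 22.0 for PMAIP1, 8.51 for BCL2L1, 6.92 for BCL2L11, 6.32 for BAD, 5.66 for BCL2 and 2.56 for BAK1 to 0.738 for BBC3. Neighbours whose DMSO ranges overlapped were BAX and MCL1, BCL2L11 and BAD, and BAD and BCL2. In the other 6 neighbouring pairs every library of the higher gene lay above every library of the lower one. In TPM, BAX exceeded MCL1 in 4 of 4 DMSO libraries, and in CR31B replicate 1 MCL1 exceeded BAX, with a ratio of BAX to MCL1 of 0.893. Per coding length MCL1 exceeded BAX in every library, with ratios of BAX to MCL1 of 0.328 to 0.446 in CR31B and 0.394 to 0.506 in DMSO.

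A list of 13 other genes, called BCL2-like here, also holds BH3-only genes such as HRK and BMF. Of these 13, 5 were tested and 1 was called, BCL2L2, which was higher, against 3.45% called higher over all genes tested. BCL2L2 encodes the anti-apoptotic protein BCL-w. It was at 3.85, 2.53, 5.10 and 2.83 TPM in CR31B and at 0.61, 0.80, 0.54 and 0.67 TPM in DMSO. The groups were far apart (log2 difference 1.44, limma adjusted p = 0.00222, SE 0.19). Every DMSO library was under 1 TPM, so BCL2L2 reached the minimum level only through CR31B, and its place among the genes tested is no support for the call. Without the minimum level its limma adjusted p was 0.0196. Exons of the readthrough gene BCL2L2-PABPN1 overlap those of BCL2L2. That gene was at 4.15 ± 2.17 TPM in CR31B and 3.98 ± 0.745 in DMSO, and the BCL2L2 value is uncertain. The sum of both genes, a value chosen after theirs were seen, was 7.73 ± 2.65 TPM in CR31B and 4.64 ± 0.785 in DMSO, higher in 4 of 4 pairs with an exact permutation p of 0.0571.

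HRK, a BH3-only gene of neurons, was under the minimum level but did not overlap between the groups, at 0.94, 0.79, 0.68 and 0.62 TPM in CR31B and 0.27, 0.25, 0.03 and 0.07 TPM in DMSO. Without the minimum level its log2 difference was 0.61, with a limma adjusted p of 0.0320. BMF, a BH3-only gene also under the minimum, was at 0.373 ± 0.428 TPM in CR31B and 1.33 ± 0.984 in DMSO, with overlapping groups. BNIP3, BNIP3L, BCL2L12 and BCL2L13 were tested and not called. BCL2A1, BCL2L10, BCL2L14 and BOK were listed at 0 in all 8 libraries, and BIK and BCL2L15 at or near 0.

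Downstream of the family, 1 of 11 tested genes of 15 for the apoptosome, caspases and mitochondrial death factors was called, CYCS, which was lower. The share called lower over all genes tested was 4.02%. CYCS encodes cytochrome c, the protein released when BAX and BAK open the membrane. It was at 214.7, 208.8, 150.3 and 197.6 TPM in CR31B and at 292.2, 269.0, 293.9 and 335.4 TPM in DMSO. The groups did not overlap, and CR31B replicate 3 was the lowest (log2 difference -0.63, limma adjusted p = 0.0211, SE 0.14). The limma adjusted p was 0.0532 without CR31B replicate 4, 0.0529 without DMSO replicate 1 and 0.0749 without DMSO replicate 4. CYCS has many pseudogene copies that can share its reads, so its value is uncertain. The median log2 difference of the tested genes was -0.073. CASP8, which encodes the protease that cleaves BID and was named after its values were seen, was listed at 0 in 6 of 8 libraries and at 0.16 TPM at most.

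Of 6 genes for inhibitor of apoptosis proteins, which block caspases or support cell division, 4 were tested and none was called (median log2 difference 0.26). Over all genes tested 7.46% were called, and 2752 had an unadjusted p under 0.05. BIRC2 had the largest estimate of this list, at 5.37 ± 1.70 TPM in CR31B and 3.50 ± 0.451 in DMSO (log2 difference 0.47, limma adjusted p = 0.145). Of 10 genes of the death receptor pathway, 5 were tested and none was called (median 0.14). TNFRSF10B, a receptor for the death ligand TRAIL, had the largest estimate there, -0.43 (limma adjusted p = 0.142, and 0.0289 with the replicate block).

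Among 19 genes whose products bind, modify or turn over BCL2 family proteins, 18 were tested and 4 fell, none being called higher. The shares over all genes tested were 4.02% lower and 3.45% higher. As this list was chosen with earlier results of these data known, its count is no independent support. The median log2 difference was -0.37, with 3 of 18 above 0. USP9X, a deubiquitinase that stabilises MCL1, was at 7.79, 5.39, 6.17 and 6.12 TPM in CR31B and 13.8, 12.4, 22.3 and 11.8 TPM in DMSO (log2 difference -1.09, limma adjusted p = 0.00922, SE 0.20). BECN1, an autophagy protein with a BH3 domain that BCL2 binds, fell by 0.71 on the log2 scale (limma adjusted p = 0.00729). Exons of CNTD1 and PSME3 overlap those of BECN1 on the opposite strand. Since the strand setting is not given, the BECN1 value is uncertain. YWHAB and YWHAQ, 14-3-3 genes, fell by 0.63 and 0.55 (limma adjusted p = 0.00709 and 0.0163). The groups did not overlap in any of these 4 genes. Without CR31B replicate 4 or DMSO replicate 4 the limma adjusted p of YWHAQ was 0.0534 and 0.0532, respectively. Of the 6 tested 14-3-3 genes, 5 did not overlap between the groups, each lower in CR31B, against 8.14% of all genes tested. The 14-3-3 genes were not planned as a group of their own, and this count was not made for the other pathway lists. Groups without overlap were not particular to 14-3-3 genes. USP9X and BECN1 of the same list were also lower without overlap, and BIRC2, ATF3, ATF4, TRIB3 and JUN of other lists were higher without overlap. Several 14-3-3 genes have processed pseudogenes that can share their reads, so these values are uncertain. With the replicate block 8 of the 18 were called, all lower, against 6.56% of all genes tested that were called lower with it.

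Of 11 genes for transcription factors that drive BH3-only genes, and regulators of such factors, 10 were tested and 3 were called, all higher. The share called higher over all genes tested was 3.45%. This list, too, was chosen with earlier results of these data known, so its count is no independent support. ATF3, a stress-induced factor, was at 11.7, 15.9, 20.0 and 9.65 TPM in CR31B and 6.26, 3.99, 5.35 and 5.08 TPM in DMSO (log2 difference 1.27, limma adjusted p = 0.00688, SE 0.21). ATF4, the main factor of the integrated stress response, rose by 0.81 (limma adjusted p = 0.0338), and TRIB3, a pseudokinase induced by ATF4, rose by 0.82 (limma adjusted p = 0.0269). The calls of ATF4 and TRIB3 held in 10 of 17 and 11 of 16 alternatives. Among single-library omissions, ATF4 passed without CR31B replicate 2 or DMSO replicate 3 and had a limma adjusted p of up to 0.0908 without any of the others. TRIB3 did not pass without CR31B replicate 1 or 3 or DMSO replicate 2 or 4 (limma adjusted p = 0.0621, 0.0578, 0.0763 and 0.0815). With the replicate block JUN was also called higher (limma adjusted p = 0.0189). JUN was named after its values were seen.

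**Figure D5:**
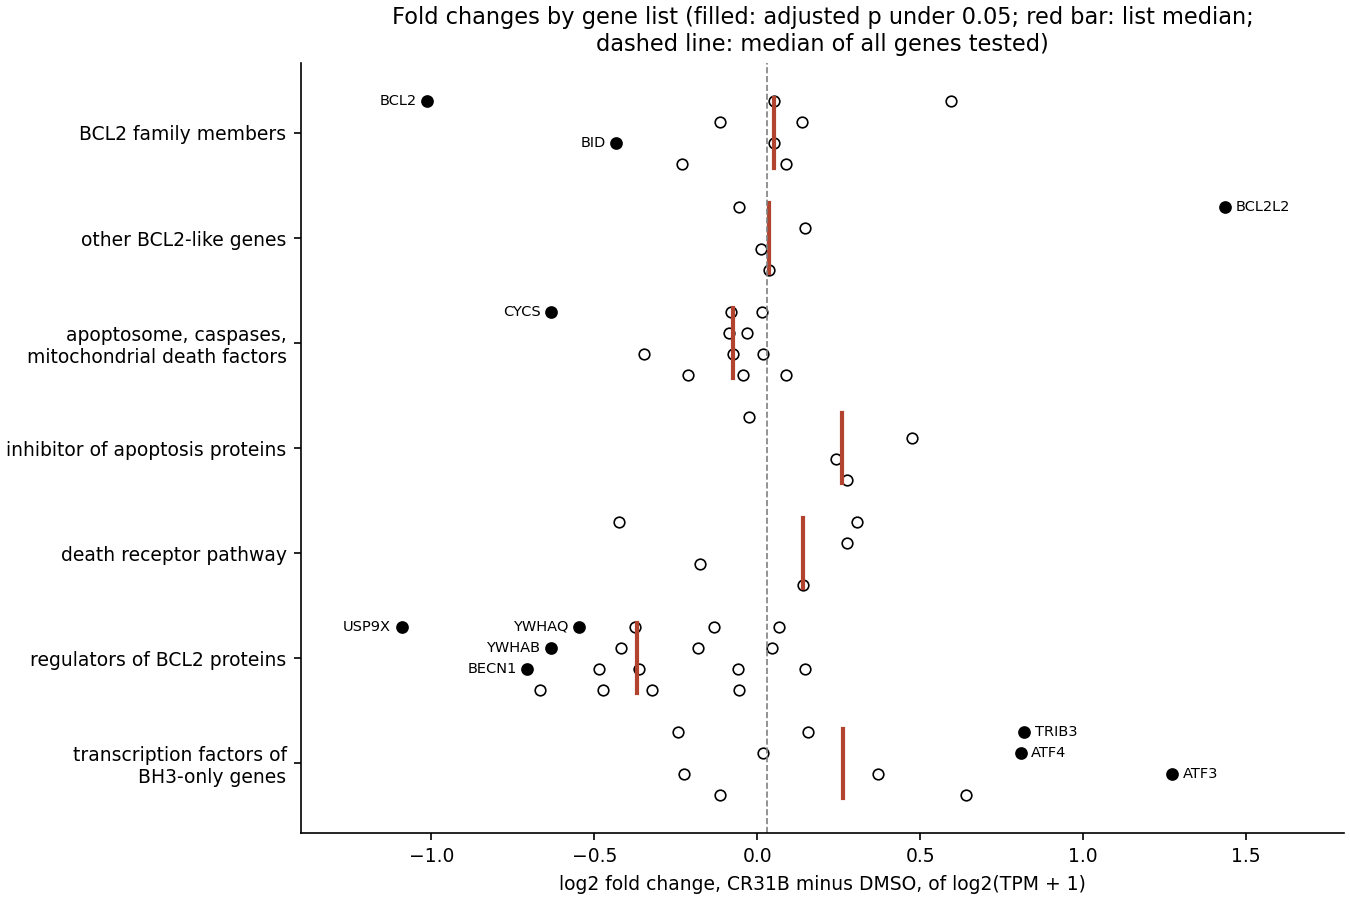
Difference of log2(TPM + 1), CR31B minus DMSO (horizontal axis), of each tested gene in the family and in 6 lists of pathway genes. Filled points passed the adjusted p of 0.05, red bars are list medians and the dashed line is the median of all genes tested, 0.029; the regulator list has the lowest median, -0.37.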

How the data were processed

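Ribosome footprints of 8 IMR32 libraries were deposited as 1 table of TPM for 60651 genes, scaled by the authors for length and library sum. The submitters' processing notes name cutadapt 3.2, Bowtie2 2.3.4.1, STAR 2.7.1a, RSEM 1.2.28 and DESeq2 1.32.0 and the builds hg38 and GRCh38; their roles, the annotation and the strand setting are not given in the sources used here. Because TPM has a constant total, more of 1 RNA class means less of the rest.

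Levels were analysed as log2(TPM + 1) with limma 3.58.1 (R 4.3.3; lmFit, eBayes with trend) for genes whose 8-library mean reached 1 TPM, with Benjamini-Hochberg adjustment over all 11778; the fit was tested on simulated data. Single values were compared with exact permutation tests (two-sided, 70 assignments). Depth is not stated; reads were estimated from the value of 1 read in short genes and annotated transcript lengths. Positions and leaders come from GENCODE release 29 (GRCh38), 1 coding transcript per gene. Other steps used Python 3.11.15 (pandas 2.3.3, NumPy 2.4.6, matplotlib 3.10.9, SciPy 1.17.1).

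The members and lists were chosen with earlier results of these data known. All members were named, and in each list every called gene, or, with none, that with the largest absolute change. Both groups carry replicate numbers 1 to 4. As deviations from the group means, same-numbered libraries correlated across genes at 0.333, 0.324, 0.301 and 0.105, other pairs at -0.206 to 0.134, so the numbers were treated as pairs in an alternative with the replicate block. An item in 1 list is not reported here by name.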

Additional observations from a re-analysis of the deposited data

Results flagged for a closer look

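Dixon's criterion, the distance of the lowest or highest library to its neighbour over the spread of all 4, was applied to 38 groups from 19 named genes. It was exceeded in 2, and chance alone gives about 1.9. BECN1 was low in DMSO replicate 1, at 21.39 TPM against 26.13 to 27.01 TPM in the other DMSO libraries, and still above every CR31B library. ATF4 was low in DMSO replicate 3, at 106.21 TPM against 172.1 to 181.0 TPM.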

How the results depend on the processing

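The count of all genes called (879) was 442 with no filter and 1453 with the replicate block. It was 1177 after a median shift, 1174 after quantile normalization and 1226 after rescaling over protein-coding genes. When 1 library was left out it was 404 to 785, lowest without DMSO replicate 4. Genes called higher (406) numbered 181 with no filter, 680 with the replicate block, 661 after rescaling over protein-coding genes, and 197 to 395 with 1 library left out. Members called (2) were 3 after a median shift, quantile normalization or rescaling over protein-coding genes, and with the replicate block. They were 1 without the variance trend or with no filter, and 1 to 2 with 1 library left out. At a minimum of 10 TPM, where BCL2 was not tested, the 2 called were BID and PMAIP1. Without CR31B replicate 2 they were BCL2 and PMAIP1. Other BCL2-like genes called (1) were 0 at a minimum of 10 TPM and 2 with no filter. The apoptosome list (1) gave 0 with no filter and 0 to 1 with 1 library left out, and the death receptor list (0) gave 1 with the replicate block. Regulators called (4) were 7 after a median shift, 7 after quantile normalization and 8 with the replicate block. Transcription factors called (3) were 1 at a minimum of 10 TPM, 1 with no filter, and 1 to 4 with 1 library left out. The sign turned for BCL2L11 after quantile normalization (-0.000695), without CR31B replicate 3 (-0.039) and without DMSO replicate 1 (-0.011); with 1 library left out its log2 difference ran from -0.039 to 0.12. For BAD it turned without CR31B replicate 1 (-0.046) and without DMSO replicate 3 (-0.0051), over a range of -0.046 to 0.17. Omissions leave fewer libraries and the unfiltered analysis tests more genes; otherwise the cause was not tested. Beyond PMAIP1, TNFRSF10B, JUN and 4 more regulators, the replicate block changed no call among the members and pathway lists. Per coding length, added after seeing the data, shares in CR31B and DMSO were 4.59% and 11.2% for BCL2, 90.3% and 82.7% for MCL1, 95.2% and 95.9% for BAX, 4.83% and 4.13% for BAK1, 0.490% and 0.497% for BBC3, 70.8% and 56.1% for PMAIP1, 4.67% and 5.39% for BCL2L11, 21.4% and 35.0% for BID, and 2.62% and 3.08% for BAD. Among the 10 members depth limits BBC3 most, with an estimated 60 to 131 reads; the other BCL2-like genes HRK and BMF go down to 9 and 3.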

Other observations

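Footprints lie mostly in coding sequence, whereas TPM divides by the whole transcript, so the order of the members depends on the length used. This second scale, TPM multiplied by transcript length and divided by coding length, was chosen after seeing the data. On it MCL1 led in DMSO at 433 ± 32.1, followed by PMAIP1 at 265 ± 10.4, BAX at 202 ± 27.7, BID at 165 ± 5.95 and BCL2 at 58.8 ± 9.89. BCL2L1 was at 31.8, BCL2L11 at 25.4, BAD at 14.5, BAK1 at 8.63 and BBC3 at 2.34. If the annotated transcripts give the lengths behind the TPM, PMAIP1 thus had rank 2 instead of 4 and BCL2 rank 5 instead of 8. Their coding sequences are 8.32% and 9.61% of those transcripts. BCL2 was above BCL2L1 in DMSO on this scale, at 49.2 to 69.1 against 29.8 to 35.1, and in CR31B their means were 24.0 ± 5.32 and 26.8 ± 5.00. Fold changes within a gene are the same ratio on either scale.

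Of the 10 death receptor genes, 5 had a mean of at least 1 TPM, from FAS at 1.01 to TNFRSF10B at 22.8 TPM, and FASLG, TNFSF10 and TNFRSF10A were listed at 0 in all 8 libraries.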
